A study of Mus musculus with 4 samples.

Results

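The genes described here are 10 neural and secretory genes, Tubb3, Stmn2, Uchl1, Elavl2, Snap25, Prph, Nts, Fabp7, Ncam1 and Scg5, of 18193 named genes on an Affymetrix array. They were chosen by name for their measured levels, most of them being high on one or both arrays of Klf4-positive cells, so those levels are given as a description and with no test. Expression was read in mouse embryonic fibroblasts (MEFs) undergoing reprogramming, that is, being turned toward pluripotency by introduced factors. The cells had been fixed, permeabilized, stained and sorted into 4 fractions, each read on 1 array. Cells without Oct4 formed the Oct4-negative fraction, and cells with Oct4 but without Klf4 the fraction called Oct4+Klf4-negative. Cells with both were divided by EpCAM, an epithelial surface protein, into an EpCAM-negative fraction (Oct4+Klf4+EpCAM-negative) and an EpCAM-positive one (Oct4+Klf4+EpCAM+). All 4 are labelled as MEFs, and the labels name no EpCAM gate for the Klf4-negative cells and no Klf4 gate for the Oct4-negative cells. The strain, the age of the embryos, the introduced factors and the time of sorting are not given in the sources used here, and whether all fractions came from the same culture is not stated. With 1 array a fraction no difference has a replicate check, and in a bulk fraction fewer cells of a type and less RNA per cell cannot be told apart.

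Neurons are built around a specialised cytoskeleton, RNA-binding proteins that stabilise and splice their messages, and a secretory machinery that releases transmitters and peptides. In most other cells, many neuronal genes, among them Stmn2, are kept low by the repressor REST with its corepressors. Several of the 10 genes are nevertheless not limited to neurons: Uchl1 is also abundant in germ cells, Nts in endocrine cells of the gut, Ncam1 in developing muscle and mesenchyme, and Fabp7 in radial glia.

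Levels are log2 values of a probe set from robust multi-array average (RMA) processing, and a difference of 1 on that scale is 2-fold. Levels of different genes come from different probe sets and are not compared with each other. The median of all values, 4.53, served as the floor above which a gene was counted as measured. Among 27 control probe sets for bacterial transcripts that gave low signal, the highest level, 2.94, served as the background ceiling, and a fold against a level at or below it is given as "at least". All 10 genes reached the floor on at least 1 array. Snap25 and Prph did so on 1 array, Scg5 on 2, Uchl1, Elavl2, Nts and Fabp7 on 3, and Tubb3, Stmn2 and Ncam1 on 4.

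The 10 genes did not share one pattern. Tubb3, Stmn2 and Uchl1 were high in both Klf4-positive fractions and much lower in the other fractions. Elavl2 was high in all 3 Oct4-positive fractions, Klf4-negative included. Nts, Fabp7 and Prph were highest in the Oct4+Klf4+EpCAM-negative fraction and lower again in the EpCAM+ fraction, while Snap25 was highest in the EpCAM+ fraction. Ncam1 and Scg5 were highest without Klf4, and for these the data go against a description as genes of the Klf4-positive cells.

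**Figure D1:**
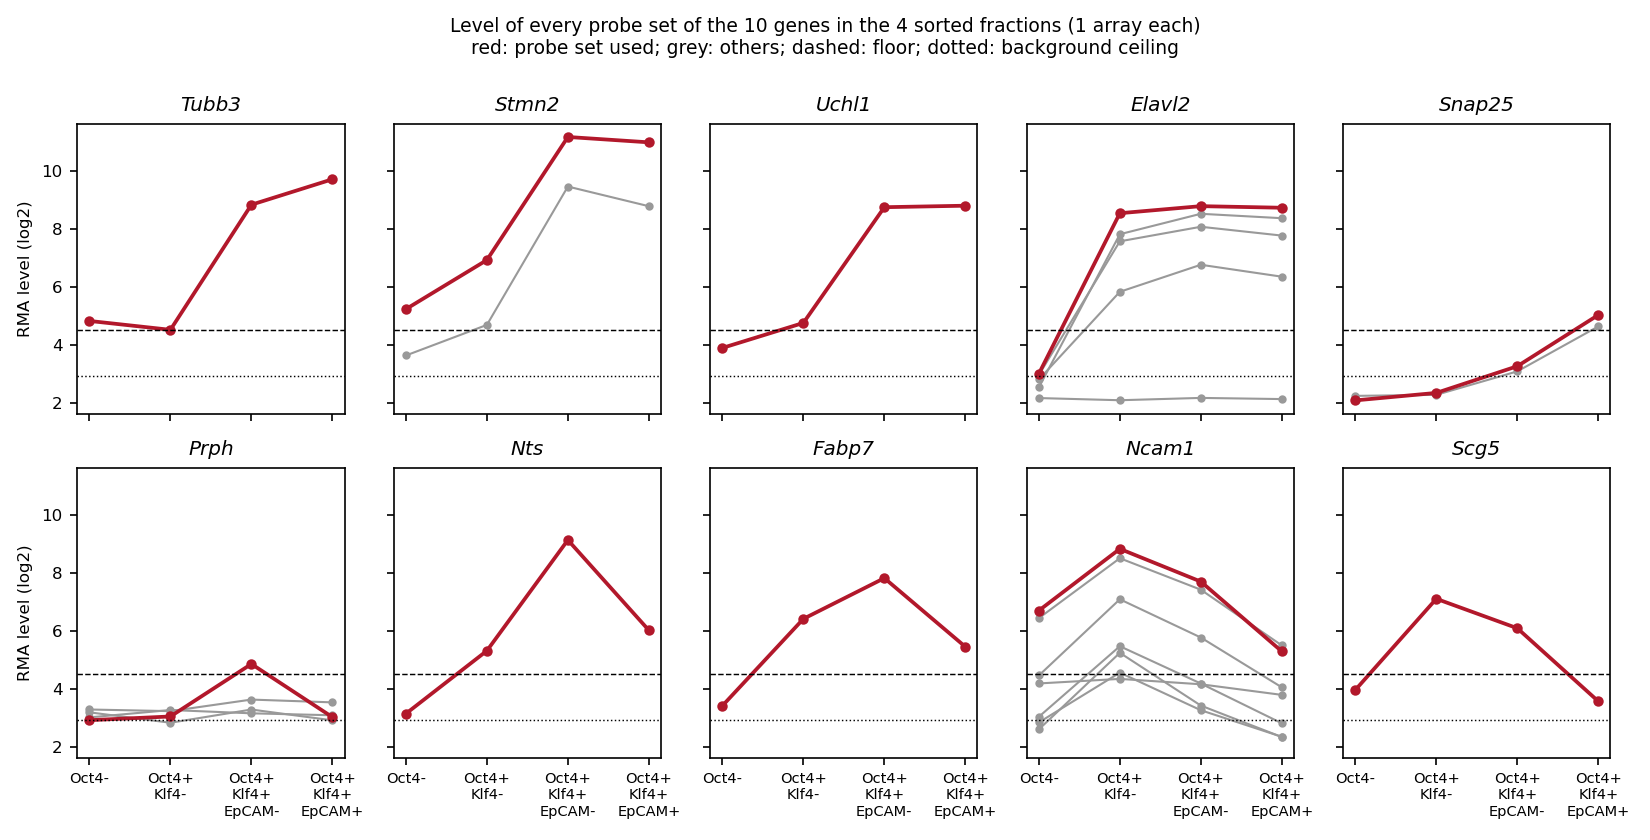
Each panel shows the RMA level (log2, vertical axis) of 1 gene on the 4 arrays in gate order (horizontal axis); red points are the probe set used, grey points the gene's other probe sets, the dashed line the floor of 4.53 and the dotted line the background ceiling of 2.94. Tubb3, Stmn2 and Uchl1 step up at the Klf4 gate, Elavl2 at the Oct4 gate, and Ncam1 and Scg5 peak in the Oct4+Klf4-negative fraction; the gate order is not a time course.

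The sorted proteins were checked by their transcripts. Pou5f1, which encodes Oct4, had levels of 7.59, 11.48, 11.66 and 11.70 in gate order, and Epcam had 4.63, 5.20, 6.54 and 9.52. The brighter Klf4 probe set read 7.32, 6.24, 10.20 and 10.60, higher in both Klf4-positive fractions, whereas the dimmer one read 6.95, 5.69, 2.67 and 3.20. The Klf4 label is therefore borne out by 1 of its 2 probe sets. Array medians lay between 4.49 and 4.55. The control probe sets for Gapdh differed between the 3′ and 5′ ends by 0.97 to 1.04 on 3 arrays and by 1.30 on the Oct4+Klf4-negative array, the one on which Ncam1 and Scg5 were highest. Those for Actb differed by -0.065 to -0.051. The part of these differences in the results below was not tested.

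Promoter sequence of RefSeq (GRCm38.p6) was at hand for 7 of the 10 genes, Tubb3, Uchl1, Elavl2, Prph, Nts, Fabp7 and Scg5. Windows of 250 bases upstream of the annotated start are shown: those of Tubb3 and Uchl1, which were high in both Klf4-positive fractions, and that of Nts, which was high in the EpCAM-negative one. Capitals mark each match, on either strand, to CACCC, the core letters of sites bound by the Klf family, to GGGCGG, the GC box, to TGACTCA, the AP-1 site, and to CAGCTG, an E-box; no marked match overlaps another. The Tubb3 window is chr8:123411303-123411552 (plus strand), the Uchl1 window chr5:66675871-66676120 (plus strand) and the Nts window chr10:102490419-102490668 (minus strand).
Tubb3: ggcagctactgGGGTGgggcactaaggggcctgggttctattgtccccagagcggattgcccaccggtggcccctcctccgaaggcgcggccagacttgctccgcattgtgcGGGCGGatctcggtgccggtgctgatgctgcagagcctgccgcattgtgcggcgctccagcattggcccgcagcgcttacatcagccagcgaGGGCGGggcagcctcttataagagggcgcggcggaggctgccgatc
Uchl1: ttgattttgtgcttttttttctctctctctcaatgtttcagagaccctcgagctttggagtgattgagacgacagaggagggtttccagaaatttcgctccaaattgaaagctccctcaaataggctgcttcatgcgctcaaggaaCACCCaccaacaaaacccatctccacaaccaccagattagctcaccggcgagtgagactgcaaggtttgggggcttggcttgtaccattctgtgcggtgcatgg
Nts: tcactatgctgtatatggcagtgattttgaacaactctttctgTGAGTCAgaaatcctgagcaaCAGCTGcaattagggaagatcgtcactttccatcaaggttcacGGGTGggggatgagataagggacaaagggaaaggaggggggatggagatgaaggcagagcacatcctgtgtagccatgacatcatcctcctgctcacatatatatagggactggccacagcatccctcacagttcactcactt

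Each of these windows held 1 match to CACCC, as did at least 1 window of 6 of the 7 genes and 52.0% of all 32851 promoter windows of this length. GGGCGG occurred in a window of 4 of the 7 genes, with 2 matches in that of Tubb3, and in 32.7% of all windows. TGACTCA and CAGCTG were each found for Nts alone among the 7, and in 4.46% and 13.0% of all windows. The octamer ATTTGCAT, the core letters of sites bound by Oct proteins, was found in no window of the 7 genes and in 1.60% of all windows. TATAAA, the TATA box, was found for Prph and in 12.4% of all windows. The base composition differed, with 68.0% G and C in the Tubb3 window, 48.8% in that of Uchl1 and 48.0% in that of Nts. Elavl2 has 6 of the 12 windows listed for these genes, so a match is more easily found for it. These letters are a description of the sequence and not evidence of binding.

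The cytoskeletal genes Tubb3 and Stmn2 were the members with the largest differences at the Klf4 gate. Tubb3, the beta tubulin used as a marker of young neurons, had levels of 4.83 in the Oct4-negative, 4.53 in the Oct4+Klf4-negative, 8.84 in the Oct4+Klf4+EpCAM-negative and 9.71 in the Oct4+Klf4+EpCAM+ fraction. Both Klf4-positive levels were thus far above both others. The Klf4 step, from the Oct4+Klf4-negative to the Oct4+Klf4+EpCAM-negative array, was 19.8-fold. The EpCAM step, from there to the Oct4+Klf4+EpCAM+ array, was 1.84-fold, short of the 2-fold used to call a gene, and the EpCAM+ level was 29.4-fold above the Oct4-negative one. Tubb3 has 1 probe set, so it was read once on each array.

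Stmn2, which encodes stathmin-2, a tubulin-binding regulator of growing axons, read 5.24, 6.93, 11.17 and 10.98 in the same order. Its other probe set read 3.64, 4.70, 9.46 and 8.78, with the same order of arrays. The gene stepped up at both of the first gates, by 3.23-fold at the Oct4 step, from the Oct4-negative to the Oct4+Klf4-negative array, and by 18.9-fold at the Klf4 step. The EpCAM step was -0.18 by the brighter probe set and -0.68 by the other, neither of them 2-fold. For scale, 5708 genes had several probe sets reaching the floor, and the SD among a gene's probe sets had a median of 0.12 for the EpCAM step; it holds no variation between cultures or sorts.

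Uchl1 encodes a ubiquitin C-terminal hydrolase that makes up a large share of the soluble protein of neurons. Its levels were 3.90, 4.76, 8.75 and 8.80. The Oct4 step, 1.82-fold, did not reach 2-fold, the Klf4 step was 15.8-fold, and the Klf4-positive levels differed by 0.05, less than the scatter between probe sets. Like Tubb3, it has 1 probe set.

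Prph, which encodes peripherin, an intermediate filament of peripheral neurons, read 2.93, 3.06, 4.87 and 3.04. It was 3.50-fold higher at the Klf4 step and 3.56-fold lower at the EpCAM step. On the other 3 arrays it lay close to the background ceiling, so only the Oct4+Klf4+EpCAM-negative array gave a level above the floor. The gene's other 3 probe sets stayed below the floor on every array and ranged over 0.25 to 0.46. The mean of its 4 probe sets differed by 0.64 at the Klf4 step and by -0.59 at the EpCAM step, neither of them 2-fold. The pattern of Prph thus rests on 1 probe set and 1 array.

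Elavl2 encodes an RNA-binding protein of the Hu family, which binds messages of differentiating neurons. Its levels were 3.02, 8.54, 8.79 and 8.73. The Oct4-negative level was close to the ceiling and the other 3 were high and close together, the Oct4 step being 46.2-fold and the Klf4 and EpCAM steps 1.18-fold and 1.04-fold. Of its 5 probe sets, 4 reached the floor and stepped up at the Oct4 gate. The step was 5.53 and 4.60 on the log2 scale for the 2 with an Oct4-negative level above the background ceiling, and the other 2 started below it, at 2.82 and 2.54. Those 4 differed by 0.24 to 0.93 at the Klf4 gate. The remaining one read between 2.10 and 2.18 throughout.

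Among the genes of secretion, Snap25, the SNARE protein that drives fusion of synaptic vesicles, read 2.10, 2.35, 3.27 and 5.04. Its other probe set read 2.25, 2.29, 3.10 and 4.64. Both probe sets placed the arrays in the same order, with the first pair below the background ceiling and the floor reached in the EpCAM+ fraction alone. The EpCAM step was 3.40-fold, and the EpCAM+ level was at least 4.28-fold above the Oct4-negative one.

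Nts encodes the precursor of the peptides neurotensin and neuromedin N, and its levels were 3.16, 5.32, 9.14 and 6.03. The Oct4+Klf4+EpCAM-negative array stood above the rest, the Oct4 and Klf4 steps being 4.49-fold and 14.1-fold and the EpCAM step 8.63-fold in the lower direction. Both Klf4-positive levels were above both others, though the EpCAM+ level was above the Oct4+Klf4-negative one by only 1.63-fold. Nts has 1 probe set.

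Scg5 encodes the protein 7B2, a chaperone of the prohormone convertase PC2 in secretory granules. Its levels were 3.97, 7.11, 6.10 and 3.58. It was 8.81-fold higher at the Oct4 step, 2.02-fold lower at the Klf4 step and 5.72-fold lower at the EpCAM step. The EpCAM+ level was 1.31-fold below the Oct4-negative one, with both below the floor and the difference not called. With the arrays shifted by housekeeping genes that difference changed sign, to 0.10. The Oct4+Klf4-negative level was 11.6-fold above the EpCAM+ level. Scg5, too, has 1 probe set.

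Fabp7, the fatty acid binding protein of radial glia, read 3.43, 6.42, 7.83 and 5.46 on its single probe set. It was 7.96-fold higher at the Oct4 step, 2.65-fold higher at the Klf4 step and 5.15-fold lower at the EpCAM step. The EpCAM+ level lay above the Oct4-negative one and below that of the Oct4+Klf4-negative array, so that the Klf4-positive arrays overlapped with the others.

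Ncam1, the neural cell adhesion molecule, read 6.71, 8.83, 7.71 and 5.30. It was 4.37-fold higher at the Oct4 step, then 2.19-fold lower at the Klf4 step and 5.29-fold lower at the EpCAM step. Of its 7 probe sets, 6 reached the floor, and each of these was highest in the Oct4+Klf4-negative fraction and lower by at least 2-fold at the Klf4 step. At the EpCAM step 3 of these 6 were called lower. The remaining probe set read between 3.80 and 4.35. Between the ends of the series Ncam1 was 2.65-fold lower by the probe set used, and 1 of the 6 reached 2-fold there.

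**Figure D2:**
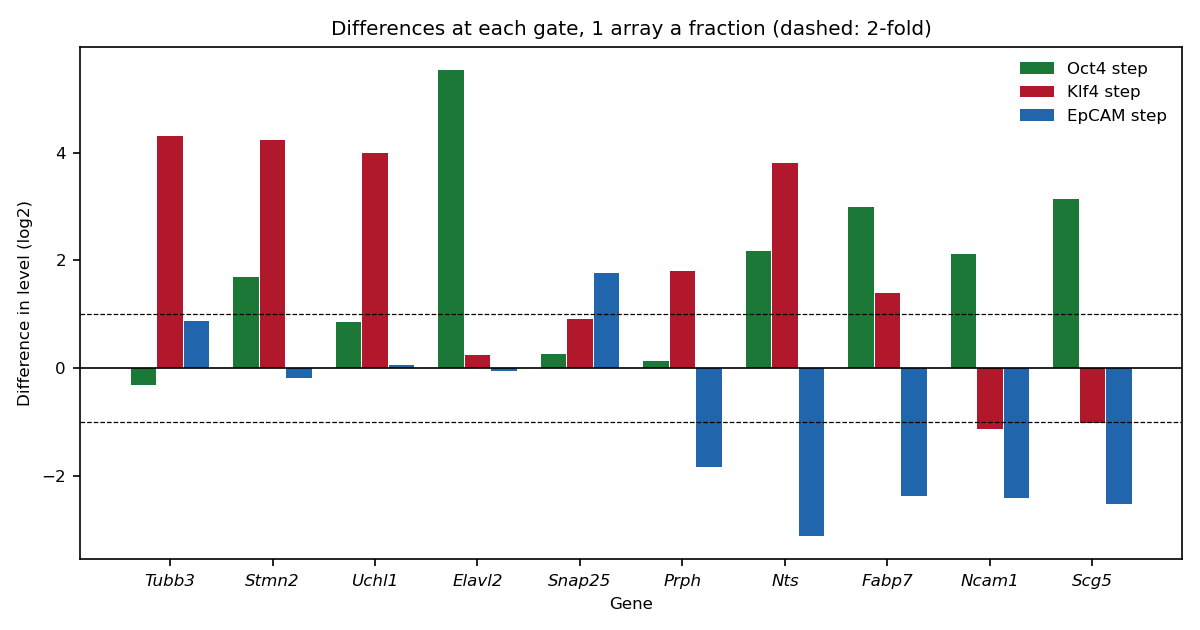
Bars give the log2 difference in level (vertical axis) of each of the 10 genes (horizontal axis) at the Oct4 step (green), the Klf4 step (red) and the EpCAM step (blue), 1 array a fraction and so without error bars; dashed lines mark 2-fold. Tubb3, Stmn2, Uchl1 and Nts have red bars near 4, Elavl2 has a green bar of 5.53, and the blue bars of Prph, Nts, Fabp7, Ncam1 and Scg5 lie below -1.

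Counted with a difference of at least 2-fold and the higher level at or above the floor, 6 of the 10 genes were higher at the Oct4 step (Stmn2, Elavl2, Nts, Fabp7, Ncam1 and Scg5) and 0 lower. Of all 11428 measured genes, 3.59% were called higher and 4.84% lower there. At the Klf4 step 6 were higher (Tubb3, Stmn2, Uchl1, Prph, Nts and Fabp7), against 8.44% of all measured genes, and 2 lower (Ncam1 and Scg5), against 6.88%. At the EpCAM step 1 was higher (Snap25), against 3.11%, and 5 were lower (Prph, Nts, Fabp7, Ncam1 and Scg5), against 1.79%. Between the ends of the series 7 were higher, against 11.9%, and 1, Ncam1, was lower, against 10.8%. With the arrays shifted by housekeeping genes, 0 genes were called lower at the Klf4 step. By the probe set used, the fall of Ncam1 and Scg5 there thus passes the 2-fold rule on the deposited scale and not on that one. The other Ncam1 probe sets reaching the floor differed by -1.82 to -1.08 on the deposited scale and were not read on the shifted one. Since these differences are what the genes were chosen on, nothing is read from the counts.

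The median log2 differences of the 10 genes were 1.91, 1.61 and -1.01 at the Oct4, Klf4 and EpCAM steps and 2.91 between the ends. Over all measured genes they were 0.02, 0.04, -0.00082 and 0.07. Neighbouring steps share an array, so a gene read high on a shared array is higher at one step and lower at the next. Just inside the 2-fold limit were Scg5 at the Klf4 step, with -1.01, and Ncam1 there, with -1.13. Just outside it were Tubb3 at the EpCAM step, with 0.88, and Uchl1 at the Oct4 step, with 0.86.

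Tubb3, Stmn2 and Uchl1 were the 3 of 10 genes with both Klf4-positive levels at least 2-fold above both others, as were 5.63% of all measured genes. Their lower Klf4-positive level exceeded the higher of the other levels by 4.00, 4.05 and 3.99 on the log2 scale. For Nts and Elavl2 that gap was 0.71 and 0.19, and for Snap25, with both other levels below the background ceiling, it was at least 1.26-fold. For Prph, Fabp7, Scg5 and Ncam1 it was negative. By the array with the highest level, 5 genes peaked in the Oct4+Klf4+EpCAM-negative fraction (Stmn2, Elavl2, Prph, Nts and Fabp7), 3 in the EpCAM+ fraction (Tubb3, Uchl1 and Snap25) and 2 in the Oct4+Klf4-negative one (Ncam1 and Scg5). Of the 3530 measured genes with a range of at least 1, 11.7%, 37.5% and 20.5% peaked there, and 30.3% peaked in the Oct4-negative fraction, where none of the 10 did.

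**Figure D3:**
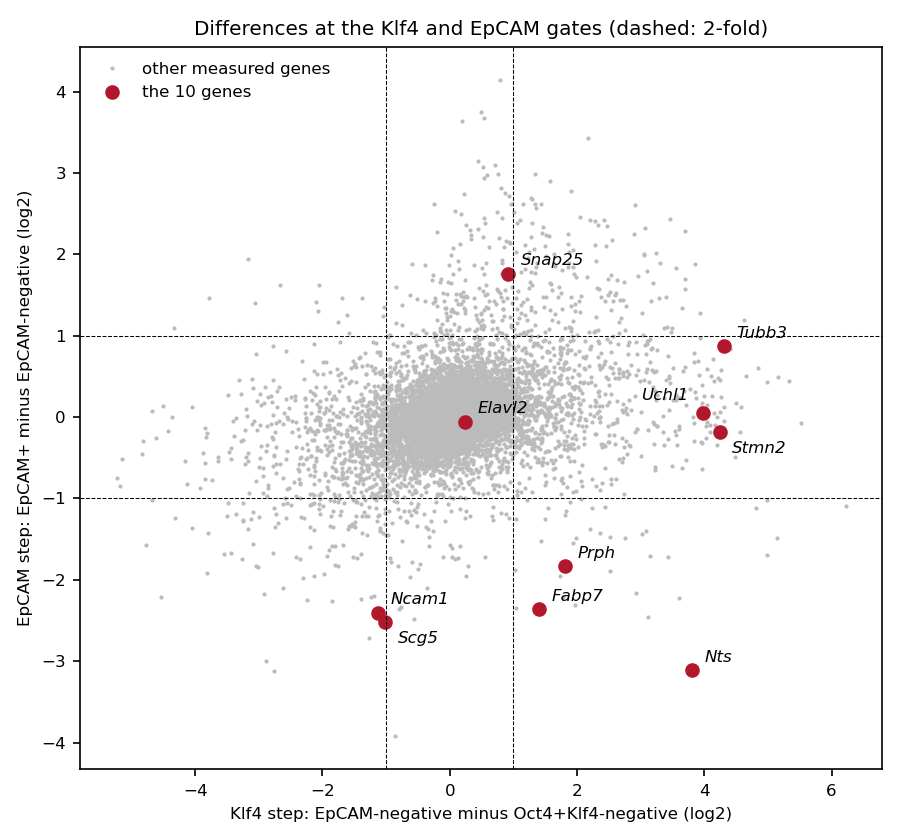
Each point is a gene, placed by its log2 difference at the Klf4 step (horizontal axis) and at the EpCAM step (vertical axis), with the 10 genes in red, the other measured genes in grey and dashed lines at 2-fold. Stmn2 and Uchl1 lie at the right near 0 on the vertical axis, Tubb3 at the right at 0.88, Nts at the lower right at 3.81 and -3.11, and Ncam1 and Scg5 at the lower left; both axes use the Oct4+Klf4+EpCAM-negative array, so they are not independent.

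Likeness of pattern was taken as the root mean square distance between centred levels over the 4 arrays, in log2 units. Among the 10 genes the closest pairs were Stmn2 and Uchl1 (0.41), Ncam1 and Scg5 (0.46), and Tubb3 and Uchl1 (0.51). Among 10993 other measured genes with a name, those closest to Tubb3 were Nccrp1 (0.19), Ush1c (0.26) and Plet1 (0.28). Those closest to Stmn2 were Atp2a3 (0.15), the pluripotency-associated gene L1td1 (0.17) and the neural transcription factor gene Sox1 (0.18). Uchl1 was matched by Ret, the receptor tyrosine kinase for GDNF family ligands (0.13), Prss35 (0.13) and S100a16 (0.14).

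The single-fraction patterns had neighbours of other kinds. Snap25 was matched by Clic3 (0.04), Lypd5 (0.06) and Crybg2 (0.10), Prph by Pepd (0.15), Arrb1 (0.21) and Entpd3 (0.26), and Scg5 by Ntrk3, the receptor of neurotrophin-3 (0.23), Srpx (0.42) and Sema6d (0.44). Ncam1 was closest to the homeobox genes Shox2 (0.39) and Hoxc8 (0.48) besides Scg5. Elavl2, Fabp7 and Nts had few near neighbours. The closest to Elavl2 were Serpini1 (0.50), Bex4 (0.55) and Sptssb (0.56), to Fabp7 Cldn1 (0.42), Igfbp5 (0.57) and Mndal (0.59), and to Nts Slc38a5 (0.76), Ryr3 (0.87) and Efcab1 (0.90). Within a distance of 0.5 there were 223 genes for Snap25, 55 for Prph, 51 for Uchl1, 39 for Tubb3 and 19 for Stmn2. There were 6 for Scg5, 5 for Ncam1, 1 each for Elavl2 and Fabp7, and 0 for Nts. With 4 arrays, and a small range for Snap25 and Prph, a close match says little.

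Relatives of each member were read from lists by family. Of all measured genes, 3.59% were called higher and 4.84% lower at the Oct4 step. The shares were 8.44% and 6.88% at the Klf4 step and 3.11% and 1.79% at the EpCAM step. Each list count below is to be set beside these shares. Of 7 measured beta tubulin genes, 3 were called higher at the Klf4 step, Tubb3, Tubb4a and Tubb2a, and 0 lower. Tubb4a read 3.35, 3.82, 6.93 and 7.83 and was 8.59-fold higher at that step, and Tubb2a was 2.13-fold higher by 1 of its 2 probe sets. Tubb2b was 2.98-fold higher at the Oct4 step, while Tubb4b, Tubb5 and Tubb6 were called at no step. Of 4 stathmin genes, Stmn1 had levels between 10.81 and 11.42 and was called at no step, and Stmn3 and Stmn4 did not reach the floor. Of the tubulin and stathmin relatives, Tubb4a was thus the one with a large step at the Klf4 gate.

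Of 5 measured neuronal intermediate filament genes, 2 were higher and 2 lower at the Klf4 step. Nefl read 3.80, 9.46, 6.53 and 5.80 and Nefm 2.51, 7.97, 3.13 and 2.68, so both were highest without Klf4. Nefh read 2.83, 2.81, 4.53 and 4.69 and was at least 3.01-fold higher at the Klf4 step, while Nes, the filament of progenitors, read 8.66, 7.10, 6.33 and 5.95. Prph shared its highest array with none of the other 4. Among 10 measured microtubule-associated genes, 3 were higher at the Klf4 step, with Crmp1, a mediator of semaphorin signalling, 22.6-fold and Dclk1, a doublecortin-like kinase, 11.6-fold by the probe set used and called higher by all 9 of its probe sets. Gap43, of growing axons, was 6.73-fold lower there, and Map2, of dendrites, 3.82-fold.

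Of 13 measured RNA-binding protein genes, 1 was higher at the Klf4 step and 2 lower. Elavl4, the close relative of Elavl2, read 3.42, 4.94, 3.34 and 3.58, whereas Elavl1, the ubiquitous family member, stayed between 9.49 and 9.75 and Elavl3 did not reach the floor. Nova2, a neuronal splicing factor, was 10.8-fold higher at the Klf4 step by 1 of its 2 probe sets. Of 3 measured ubiquitin C-terminal hydrolase genes, Uchl1 was the one called at any step, Uchl5 staying between 9.50 and 9.75 and Bap1 between 8.66 and 9.11.

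Of 12 measured SNARE and synaptic vesicle genes, Snap25 was the one called at the EpCAM step. Its widely expressed homologue Snap23 read 8.59, 8.86, 9.01 and 9.26, and Vamp2, its partner in the synaptic complex, 8.26, 8.17, 7.46 and 7.70. Syt1, the calcium sensor of vesicle release, was 2.37-fold higher at the Oct4 step. Syp and Syn1, defining proteins of synaptic vesicles, stayed below the floor throughout.

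Of 7 measured genes of granins and peptide processing, 3 were higher at the Oct4 step, Vgf, Scg5 and Insm1, and 1 was lower, Ptprn, by 3.95-fold. Vgf read 3.20, 7.25, 2.92 and 4.02 and shared its highest array with Scg5. Insm1, a zinc finger factor of neuroendocrine cells, was 3.85-fold higher at the Klf4 step, and Pcsk1n, an inhibitor of a prohormone convertase, 2.14-fold. The granin genes Chga, Chgb, Scg2 and Scg3 and the convertase gene Pcsk1 stayed below the floor on every array. Of 17 neuropeptide genes on the array 5 were measured, and at the Klf4 step Nts and Calcb were higher and Penk lower. Of the receptors for neurotensin, Ntsr1 and Ntsr2 stayed below the floor on every array, and Sort1, the sorting receptor that also binds it, read 7.72, 8.94, 7.39 and 7.12.

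Of 5 measured fatty acid binding protein genes, Fabp7 was the one called higher at the Oct4 and Klf4 steps, and 2 were lower at the first and 1 at the other. The adipocyte gene Fabp4 was 14.4-fold lower at the Klf4 step, Fabp6, the ileal form, was 6.14-fold higher at the EpCAM step, and Fabp5 stayed between 10.95 and 11.30. Among 11 measured genes of neural adhesion and polysialylation, 5 were higher and 0 lower at the Oct4 step, and 1 was higher and 5 lower at the Klf4 step. These counts hold Ncam1 itself. Without it, 4 of 10 were higher at the Oct4 step, and 1 of 10 was higher and 4 lower at the Klf4 step. Of all measured genes, 3.59% were called higher and 4.84% lower at the Oct4 step, and 8.44% and 6.88% at the Klf4 step. St8sia4, which adds polysialic acid to Ncam1, was 8.62-fold higher at the Oct4 step and 5.97-fold lower at the Klf4 step, as Ncam1 was in direction. Chl1, a relative of L1, was likewise 6.03-fold higher and then 2.24-fold lower. Cntn1 and L1cam went the other way, being 2.80-fold and 2.81-fold higher at the EpCAM step, where Ncam1 was lower.

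**Figure D4:**
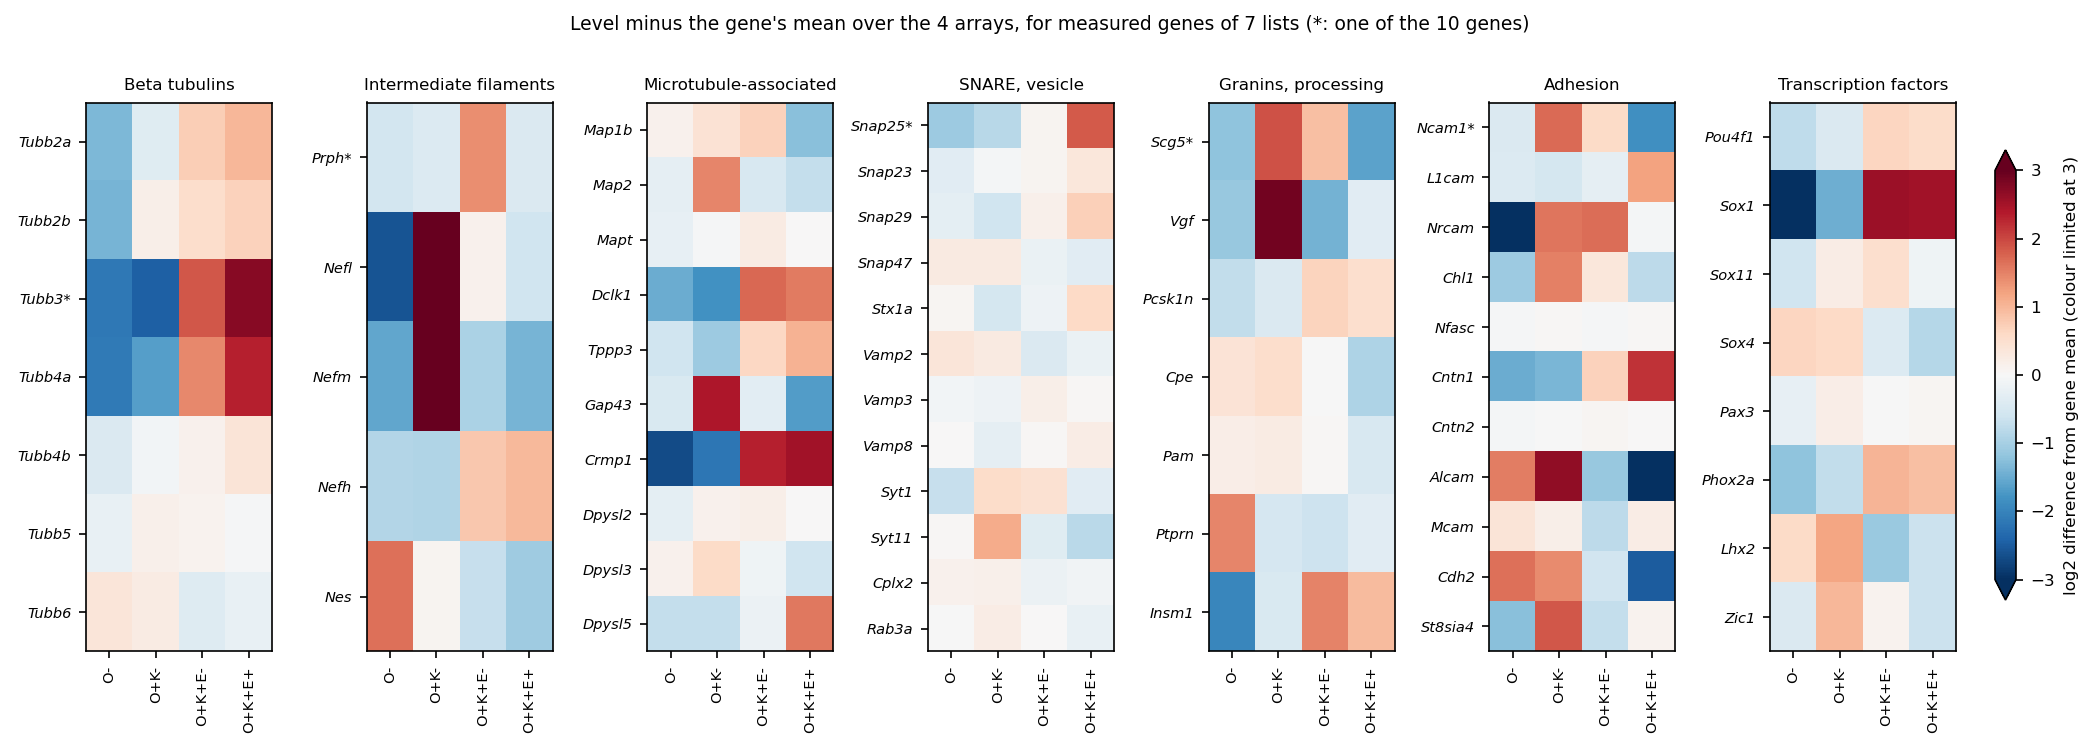
Colour gives each measured gene's level minus its own mean over the 4 arrays (log2, red higher, blue lower, limited at 3), with genes as rows, arrays in gate order as columns (O for Oct4, K for Klf4, E for EpCAM) and asterisks at the 10 genes. Tubb4a, Crmp1, Dclk1, Nefh and Sox1 are red in both Klf4-positive columns as Tubb3 is, whereas Nefl, Nefm, Vgf, Gap43 and Chl1 are red in the Oct4+Klf4-negative column as Scg5 and Ncam1 are. Scg5, Ncam1, Nefl and Chl1 are also above their own mean in the Oct4+Klf4+EpCAM-negative column, while Nefm, Vgf and Gap43 are below theirs.

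Regulators were read beside the members. Of 8 measured neural transcription factor genes, 3 were higher at the Klf4 step, Sox1, Phox2a and Pou4f1, and 2 lower, Lhx2 and Sox4. Sox4 differed by -1.01 by the probe set used. It was called lower by 2 of its 8 probe sets, where 5 of the 8 reached the floor. Sox1 and Pou4f1 were each called by 1 of 2 probe sets, the 1 that reached the floor. Sox1 read 2.90, 5.05, 9.10 and 9.03, a 16.5-fold step at the Klf4 gate, and Phox2a 2.81, 3.28, 5.02 and 4.92. The array holds 26 such genes, and Sox2, Pax6, Neurod1 and Neurog2 were among those that reached the floor nowhere. All 11 genes of the REST repressor complex on the array were measured, and none was called at any step. Rest itself read 9.09, 9.15, 8.69 and 8.78, a difference of -0.46 at the Klf4 step.

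As medians over their measured genes, the log2 differences at the Klf4 step were 0.33 for the beta tubulins, -0.77 for the intermediate filaments, 0.26 for the microtubule-associated proteins and -0.09 for the RNA-binding proteins. They were 0.11 for the ubiquitin hydrolases, 0.02 for the SNARE and vesicle genes, -0.22 for the granins and processing genes and 0.33 for the neuropeptides. For the fatty acid binding proteins, the adhesion genes, the transcription factors and the REST complex they were -0.25, -0.96, 0.05 and -0.20. Among these lists of relatives and regulators, those with 2 measured genes each were furthest from 0. They were the stathmins, Stmn2 among them, with 2.08, and the neurotensin receptors, with -1.85, where Sort1 and Sorl1 were both called lower. The marker lists described below are not included in this ranking. Among them the pluripotent cell, epithelial and fibroblast markers had medians of 3.65, 2.29 and -1.91 at that step. Over all measured genes the median was 0.04.

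Markers of the cell types that a fraction could hold were counted in each. Of 19 neuron markers, 4, 6, 6 and 6 reached the floor in gate order, their mean levels being 3.75, 4.63, 4.03 and 3.92. Slc17a6, Gad1, Gad2 and Chat, which define transmitter types, were at or below the background ceiling on every array. Slc32a1, the vesicular GABA transporter gene, read 5.43, 5.36, 5.30 and 5.46, above the floor on every array, and Dcx, of migrating neurons, read no higher than 2.95. Of 9 measured neuron markers, 5 were higher and 0 lower at the Oct4 step, against 3.59% and 4.84% of all measured genes. At the Klf4 step 1 was higher, Nefh, and 5 were lower, against 8.44% and 6.88%. The mean of the list was lower at the Klf4 step, where Tubb3, Stmn2 and Uchl1 were higher. In both Klf4-positive fractions that mean was still above the one in the Oct4-negative fraction. It was highest on the array where Ncam1 and Scg5 were highest.

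Of 9 astrocyte and oligodendrocyte markers 2 were measured, and Gfap, Aqp4, Mog and Mag were at or below the ceiling throughout, the mean levels being 3.40, 3.89, 3.49 and 3.55. Of 11 neural crest and Schwann cell markers 6, 6, 5 and 5 reached the floor, with mean levels of 5.13, 4.96, 5.31 and 5.26. Foxd3, Gjc3 and Cdh19 were at or below the ceiling throughout. Of 8 measured, 3 were called higher and 2 lower at the Klf4 step, against 8.44% and 6.88% of all measured genes. Ngfr, Erbb3 and Tfap2a were 10.5-fold, 8.96-fold and 2.48-fold higher there, and Tfap2b and Ets1 4.71-fold and 4.23-fold lower. The call held for 1 of 4 probe sets of Ets1, all of which reached the floor. It held for 2 of 3 probe sets each of Ngfr and Tfap2a, and for 2 of 2 each of Erbb3 and Tfap2b. Of 7 neuroendocrine markers 0, 1, 1 and 1 reached the floor, Insm1 being the one, and the mean levels were 2.86, 3.43, 3.40 and 3.31. Of 10 progenitor and radial glia markers 5, 6, 6 and 6 reached the floor, with mean levels of 5.30, 5.11, 5.49 and 5.19. Of the 6 measured, 2 were called higher at the Klf4 step, Sox1 and Prom1, and 0 lower. At the Oct4 step 1 was higher and 2 lower, and between the ends 2 were higher and 3 lower.

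At the Klf4 step, where Tubb3, Stmn2 and Uchl1 were higher, 7 of 10 measured epithelial markers and 4 of 5 measured pluripotent cell markers were called higher and 0 lower. Of all measured genes, 8.44% were called higher and 6.88% lower at that step. Krt18, Cldn4 and Cldn7 were the epithelial markers not called there. Epithelial markers reached the floor in 5, 5, 8 and 10 of 10, with mean levels of 4.98, 4.78, 6.79 and 8.95. Pluripotent cell markers did so in 1, 2, 5 and 5 of 12, with mean levels of 3.05, 3.15, 4.58 and 5.02, and Nanog, Tdgf1 and Gdf3 were at or below the ceiling throughout. Fibroblast markers reached the floor in 9, 9, 8 and 8 of 10, with mean levels of 8.77, 8.05, 6.86 and 6.23. Of 9 measured fibroblast markers, 7 were called lower at the Klf4 step and 2 higher, Dcn and S100a4. Of 9 myogenic markers, a list that holds Ncam1, 2, 1, 3 and 3 reached the floor, with mean levels of 3.33, 3.62, 3.65 and 3.57. The part of any of these cell types in the levels of the 10 genes was not tested.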

How the data were processed

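RNA of 4 sorted fractions was read on 1 array each. Per the labels' protocols, RNA of fixed, permeabilized and stained cells was extracted with a RecoverAll kit and amplified with the Ovation Pico WTA kit, which can change a transcript's level with its integrity. The authors deposited 1 log2 level for each probe set, made with RMA, as the submitters' processing notes name it, with no version; its settings are not given in the sources used here. They ran from 1.31 to 14.4, and no scanner values were used here.

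Of 45037 probe sets besides 64 controls, 34945 had 1 gene symbol in the platform annotation, 932 had several and 9160 had none and were not used. Where a gene had several, the one of highest mean level over the arrays stood for it, which gave 18193 genes, 11428 of them reaching the floor. A call needed a 2-fold difference and a higher level at or above the floor. With 1 array a group there is no test, p-value or error. The 10 genes and the 23 other gene lists were chosen with earlier results of these data known. In each list, up to 4 genes past the rule in each direction of a comparison, largest first, could be named; list genes named without a call were chosen after their values were seen. The 3 nearest genes by pattern, leaving out uncharacterized ones, were named for each member. Python 3.11.15, numpy 2.4.6 and pandas 2.3.3 were used. Alternatives covered the choice of probe set, floor, threshold and scaling.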

Additional observations from a re-analysis of the deposited data

How the results depend on the processing

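No paired analysis was possible because each fraction has 1 array. Of 240 log2 differences of single genes under an alternative, 214 kept their direction and their side of the 2-fold rule, 21 no longer passed it and 1 newly passed it. The other 4, none of them called, changed sign: with the housekeeping shift Stmn2 and Elavl2 at the EpCAM step (0.12 and 0.25) and Scg5 between the ends (0.10), and with the mean of all probe sets Prph at the Oct4 step (-0.0086). When the floor was raised to 6.87, the 75th percentile, 4 genes were higher between the ends in place of 7 and 0 lower in place of 1, and at the EpCAM step 0 were higher in place of 1 and 3 lower in place of 5, since fewer genes reach that floor. At the Klf4 step the 2 genes called lower became 1 with probe sets of plain suffix, 1 with median-centred arrays, and 0 with a log2 threshold of 1.5 or with arrays shifted by housekeeping genes. Ncam1, called lower between the ends, was not (0) with the mean of all probe sets, plain probe sets, a log2 threshold of 1.5 or the housekeeping shift. With a threshold of 1.5-fold or the housekeeping shift, 2 genes, Tubb3 and Snap25, were higher at the EpCAM step, and 5 rather than 3 had both Klf4-positive levels above both others, Snap25 and Nts being added, Snap25 against levels below the background ceiling. With plain suffixes Ncam1 was read by a probe set that stayed below the floor on every array. That probe set differed by 0.16, -0.19 and -0.37 at the 3 steps. Other plain probe sets of Ncam1 reached the floor. These differed by 2.64, 2.43 and 1.71 at the Oct4 step and by -1.82, -1.29 and -1.29 at the Klf4 step. At the EpCAM step they differed by -1.08, -1.37 and -0.92.

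The housekeeping shift, by the median of 8 of the 10 housekeeping genes listed (the other 2 had no probe set used here), was 0.09, -0.27 and -0.31 at the 3 steps and -0.49 between the ends. Under it 19 of 216 calls of all listed genes no longer passed the rule, as did 2 under median centring, and 0 changed sign. Snap25 and Prph reached the floor on 1 array each, so signal close to background limits both. Without replicate arrays no difference here can be set against the variation between cultures or sorts.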
